A study of Mus musculus with 4 samples.

Results

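The hyaloid macrophage genes described here are 10 genes of the 32285 mouse genes in the count matrices: *C1qa*, *C1qb*, *C1qc*, *Csf1r*, *Cx3cr1*, *Mrc1*, *Lyz2*, *Apoe*, *Pf4* and *Wnt7b*. The list was given by name and was followed in all 1536 wells of 4 plates, 384 wells per plate, with spike-in RNA left out. A well with unique molecular identifiers (UMIs, counts of captured RNA molecules) of at least 3 of the 10 genes is called a carrier well here, and 17 of the 1536 wells were carriers. Hyaloid macrophages are resident phagocytes that lie on the transient vessels of the vitreous in the developing eye and clear dying vessel cells. They are known as a source of Wnt7b, which takes part in vessel regression. Wnt7 ligands act through Frizzled and Lrp receptors, with Gpr124 and Reck as co-receptors. Macrophages depend on signals through Csf1r, secrete the C1q complement complex and carry surface receptors such as Mrc1 and Cx3cr1.

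The study sequenced single cells of the hyaloid vessels from vitreous bodies of mice at postnatal day 6 by SORT-seq, in which single cells are sorted into wells and each well's RNA receives its own barcode. Knockout mice were *Gpr124* ∆EC/∆EC, meaning *Gpr124* fl/fl with the tamoxifen-inducible VECad-Cre-ER T2 transgene, and controls were Cre-negative *Gpr124* fl/fl littermates that received tamoxifen too. The Cre is restricted to endothelial cells, so macrophages and pericytes are not targeted in either group. Vitreous bodies of several mice were pooled per genotype and dissociated with Subtilisin A, live cells low for 7-AAD were sorted by CD31 (an endothelial surface protein) or PDGFRB (a pericyte surface protein), and each genotype filled 2 plates. No macrophage marker was used in the sort. The plates are named here by genotype and main gate. The knockout PDGFRB plate also holds some wells of the CD31 gate, and their positions are not in the sources used here. Among wells of 1000 to 8000 UMIs, the control CD31 plate held 2 with *Cldn5* only (endothelial) and 6 with *Pdgfrb* only (pericyte). The control PDGFRB plate held 4 and 4, the knockout CD31 plate 4 and 0 and the knockout PDGFRB plate 2 and 12. These markers do not follow the names of the control plates, so values by gate are values by plate name. With 1 pooled cell suspension per genotype there is no replicate, so no test between genotypes was made, and every interval is a 95% interval that covers counting error only.

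Mouse UMIs summed to 51972 in the knockout CD31 plate, 174645 in the knockout PDGFRB plate, 108059 in the control CD31 plate and 128082 in the control PDGFRB plate. Median UMIs per well were 81.5, 146, 141 and 157 in the same order. Totals were scaled to the control PDGFRB plate, which had the highest median, and by the scaled totals 1478 wells held under 1000 UMIs, 47 held 1000 to 8000 and 11 held over 8000. Most wells were therefore shallow, and the genes are described in shallow and deep wells separately.

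The 4 plates used the same 384 well barcodes, and wells that shared a barcode were not independent of each other. Across the 384 barcodes the Spearman correlation of well totals between plates ran from 0.84 to 0.90 over the 6 pairs of plates, while that of spike-in totals ran from 0.33 to 0.41. Wells under 1000 UMIs had a median scaled total of 373 where the same barcode held at least 1000 UMIs in another plate (130 wells) and 147 elsewhere. The content followed the barcode as well. Shallow wells at the 9 barcodes whose only deep well had *Cldn5* without *Pdgfrb* held 45.6 endothelial-list UMIs per 10000 UMIs (95% interval 32.3 to 62.7), against 6.50 at the 337 barcodes with no deep well. Shallow wells at the 18 barcodes whose only deep well had *Pdgfrb* without *Cldn5* held 250 pericyte-list UMIs per 10000 (229 to 274), against 92.8 at the 337 barcodes. The counts of carriers, the summed level of the 10 genes in shallow wells of each plate and its genotype ratio are for this reason given with and without wells whose barcode is deep in another plate. Leaving these wells out does not remove the sharing. Over the 337 barcodes with no deep well, the correlation of totals between plates still ran from 0.81 to 0.88. The other values include those wells unless the text says otherwise, and the cause of the sharing was not tested.

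The targeted gene, *Gpr124* (*Adgra2* in the matrices), had 4 UMIs in the knockout CD31 plate, 35 in the knockout PDGFRB plate, 13 in the control CD31 plate and 9 in the control PDGFRB plate. In wells of 1000 to 8000 UMIs with *Cldn5* and no *Pdgfrb*, where the Cre acts, it had 0 of 15864 UMIs in 6 knockout wells and 3 of 16343 UMIs in 6 control wells, both at or under the floor of 3 counts. A difference in the targeted gene was not detectable at this depth in these wells. Whether the counted tags lie in the deleted exons is not given in the sources used here. Carrier wells held 2 *Adgra2* UMIs in all.

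Together the 10 genes had 816 UMIs, or 17.6 per 10000. The knockout CD31 plate held 156 of these (30.0 per 10000), the knockout PDGFRB plate 471 (27.0 per 10000), the control CD31 plate 73 (6.76 per 10000) and the control PDGFRB plate 116 (9.06 per 10000). Both knockout plates thus held a higher share than both control plates. A single well of the knockout PDGFRB plate, at barcode number 135, held 224 of the 816 UMIs, or 27.5%.

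*C1qa*, *C1qb* and *C1qc* encode the 3 chains of C1q, the recognition subunit of the classical complement pathway, and lie side by side on chromosome 4 of GRCm38. *C1qa* (ENSMUSG00000036887, 136895917 to 136898803) had 7 UMIs in the knockout CD31 plate, 36 in the knockout PDGFRB plate, 0 in the control CD31 plate and 2 in the control PDGFRB plate. *C1qb* (ENSMUSG00000036905, 136880129 to 136886187) had 8, 57, 5 and 16 UMIs in the same order. *C1qc* (ENSMUSG00000036896, 136889804 to 136893065) had 14, 35, 6 and 9 UMIs. All 3 genes were highest in the knockout PDGFRB plate, by UMIs, but they differed in how closely they kept to carrier wells. Carrier wells held 93.3% of the *C1qa* UMIs (81.7 to 98.6), 79.7% of the *C1qc* UMIs (67.8 to 88.7) and 58.1% of the *C1qb* UMIs (47.0 to 68.7). *C1qb* was found in 45 wells, *C1qc* in 24 and *C1qa* in 11. Of the 17 carrier wells, 16 held UMIs of at least 1 C1q chain and 6 held all 3 chains.

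*Csf1r* encodes the receptor for the growth factors Csf1 and Il34 and *Cx3cr1* a chemokine receptor, and both are used to mark macrophages. *Csf1r* (ENSMUSG00000024621, chromosome 18, 61100598 to 61132149) had 11 UMIs in the knockout CD31 plate, 33 in the knockout PDGFRB plate, 3 in the control CD31 plate and 11 in the control PDGFRB plate. *Cx3cr1* (ENSMUSG00000052336, chromosome 9, 119901616 to 120069879) had 6, 15, 0 and 4 UMIs. Carrier wells held 82.8% of the *Csf1r* UMIs (70.6 to 91.4) and 88.0% of the *Cx3cr1* UMIs (68.8 to 97.5), and 8 carrier wells had both receptors. Other wells of at least 1000 UMIs held 2 *Csf1r* UMIs and 0 *Cx3cr1* UMIs.

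*Mrc1* encodes the mannose receptor of tissue-resident macrophages, *Lyz2* a lysozyme of myeloid cells and *Pf4* a chemokine made by platelets and by many resident macrophages. *Mrc1* (ENSMUSG00000026712, chromosome 2, 14229392 to 14332057) had 4, 20, 1 and 3 UMIs in the knockout CD31, knockout PDGFRB, control CD31 and control PDGFRB plates. *Lyz2* (ENSMUSG00000069516, chromosome 10, 117277331 to 117282321) had 1, 53, 1 and 2 UMIs in the same order, and 44 of its 57 UMIs came from the well at barcode 135 of the knockout PDGFRB plate. *Pf4* (ENSMUSG00000029373, chromosome 5, 90772435 to 90773383) had 16, 53, 2 and 6 UMIs. The same well held 15 of the 28 *Mrc1* UMIs. Carrier wells, which these genes helped to define, held 96.4% (81.7 to 99.9) of the *Mrc1* UMIs and 93.0% (83.0 to 98.1) of the *Lyz2* UMIs. For *Pf4* the share was 74.0% (62.8 to 83.4).

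*Apoe*, a lipid carrier that macrophages and other cells make, had the most UMIs of the 10 genes and spread over the most wells. *Apoe* (ENSMUSG00000002985, chromosome 7, 19696109 to 19699188) had 88, 169, 55 and 63 UMIs in the knockout CD31, knockout PDGFRB, control CD31 and control PDGFRB plates, in 153 wells. Carrier wells held 42.4% of them (37.3 to 47.6), the lowest share of the 9 genes other than *Wnt7b*. *Apoe* alone made up the signal in 118 of the 171 wells that had UMIs of exactly 1 of the 10 genes.

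*Wnt7b* (ENSMUSG00000022382, chromosome 15, 85535437 to 85582473), the ligand in the list, had 1 UMI in all 1536 wells. It lay in a carrier well of the knockout CD31 plate, barcode 352, that had 415 UMIs, 5 of the 10 genes and 2 *Pdgfrb* UMIs. The well at barcode 135 of the knockout PDGFRB plate, with 9290 UMIs and the other 9 genes, had no *Wnt7b* UMI. Expression of *Wnt7b* in the macrophage-gene wells was therefore not detectable beyond a single molecule at this depth.

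The knockout CD31 plate held 6 carrier wells, the knockout PDGFRB plate 7, the control CD31 plate 1 and the control PDGFRB plate 3. By plate name, 7 carriers were in CD31 plates and 10 in PDGFRB plates. These are not counts by gate. The knockout PDGFRB plate also holds wells of the CD31 gate, and the markers of the control plates do not follow their names. By genotype, 13 were in knockout plates and 4 in control plates. Without wells at a barcode deep in another plate, the 4 plates held 3, 6, 0 and 1 carriers in the same order, or 9 in knockout and 1 in control plates. The count rests on both knockout plates: without the knockout CD31 plate 11 carriers were left, and without the knockout PDGFRB plate 10. By depth, 12 carriers held under 1000 scaled UMIs, 4 held 1000 to 8000 and 1 held over 8000. All 5 carriers of at least 1000 scaled UMIs were in knockout plates, but 2 of them had 950 and 720 UMIs before scaling, fewer than the 992 UMIs of barcode 83 in the control PDGFRB plate. Carriers made up 1.11% of all wells (0.646 to 1.77, exact binomial interval).

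**Figure D1:**
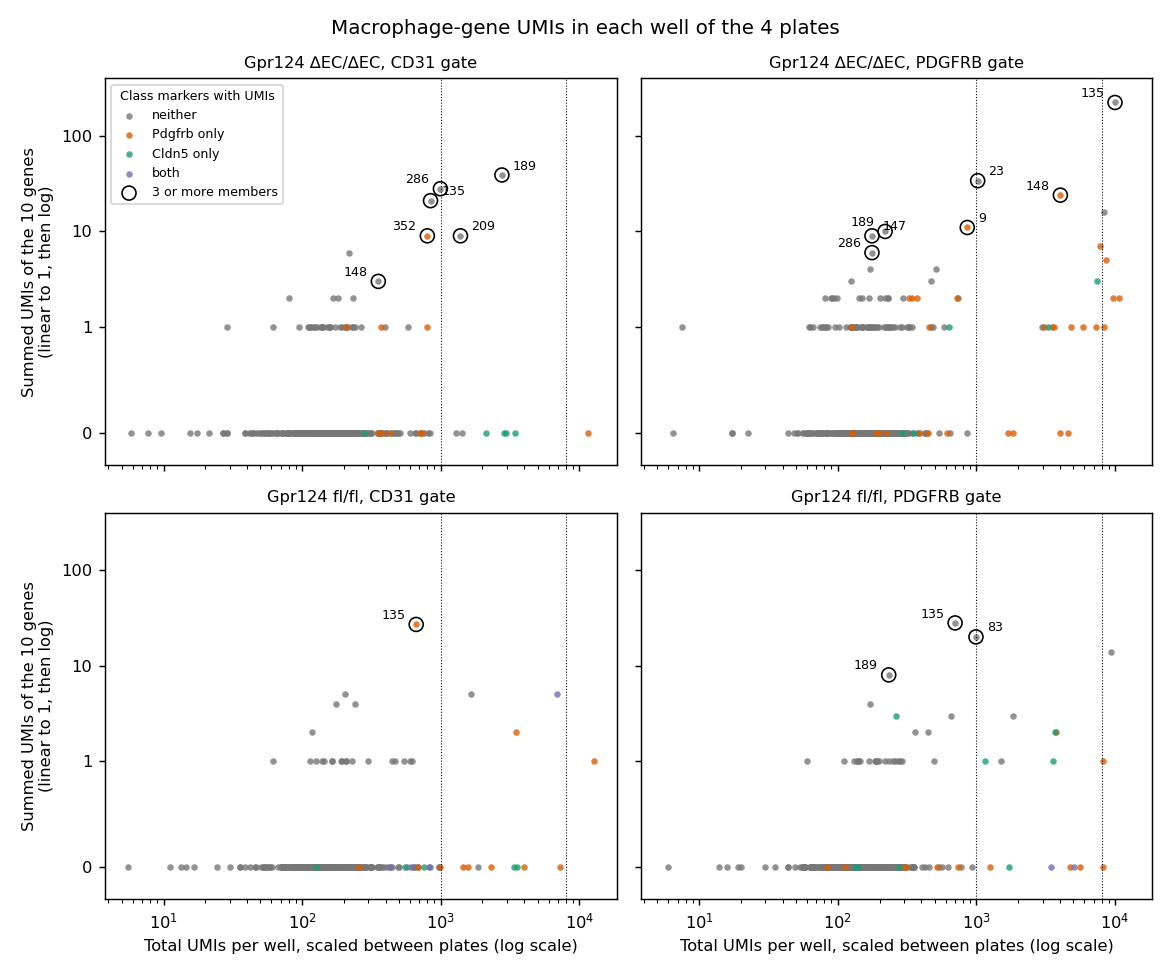
Each point is a well: its total UMIs after scaling between plates (x axis, log scale) and its summed UMIs of the 10 macrophage genes (y axis, linear to 1 and log above), coloured by class marker. Circles mark the 17 carrier wells with their barcode numbers, and dotted lines stand at 1000 and 8000 UMIs.

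Most wells had none of the 10 genes: 1325 wells had UMIs of 0 members, 171 of 1 member, 23 of 2 members and 3 of exactly 3. The other 14 carriers had at least 4 members. The 3 wells just inside the threshold held 11, 6 and 3 member UMIs. Of the 23 wells just outside it, 18 had *Apoe* as 1 of their 2 members, 17 lacked both class markers and 19 held under 1000 UMIs. Carrier wells together held 510 of the 816 member UMIs, or 62.5% (59.1 to 65.8), and 351 of the 441 UMIs of the 9 genes other than *Apoe*, or 79.6% (75.5 to 83.3). With the well at barcode 135 of the knockout PDGFRB plate left out, the share of all 10 genes was 48.3%. Carriers were chosen by these genes, which raises such shares.

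The deepest carrier, barcode 135 of the knockout PDGFRB plate, had 9290 UMIs (scaled 9995), 2.60% of them mitochondrial, and 9 of the 10 genes. It held 29 *C1qa*, 27 *C1qb*, 22 *C1qc*, 25 *Csf1r*, 7 *Cx3cr1*, 15 *Mrc1*, 44 *Lyz2*, 34 *Pf4* and 21 *Apoe* UMIs. These made up 2.41% of the well. It had no UMI of *Cldn5* or *Pdgfrb*, and it was the only carrier over 8000 UMIs.

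Of the 4 carriers of 1000 to 8000 scaled UMIs, the knockout CD31 plate held 2 and the knockout PDGFRB plate 2. Barcode 189 of the knockout CD31 plate had 1433 UMIs and 39 member UMIs of 9 genes, led by 19 *Apoe* and 5 *Pf4*. Barcode 209 of the same plate had 720 UMIs (scaled 1387) and 9 member UMIs of 5 genes. Barcode 23 of the knockout PDGFRB plate had 950 UMIs (scaled 1022) and 34 member UMIs of 8 genes, with 6 *Cx3cr1* and 0 *Pf4*. These 3 wells had neither class marker and under 10% mitochondrial UMIs. Barcode 148 of the knockout PDGFRB plate had 3750 UMIs, 5 of them *Pdgfrb*, and 91 UMIs of the pericyte list beside 24 member UMIs, of which 15 were *Apoe* and 5 *C1qc*. It was the only carrier among the 32 wells with 1000 to 8000 UMIs, under 10% mitochondrial UMIs and exactly 1 class marker, and whether it held more than 1 cell was not tested.

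The 12 carriers under 1000 scaled UMIs came from all 4 plates. The 4 carriers of the control plates were all among them: barcode 135 in both control plates and barcodes 83 and 189 in the control PDGFRB plate. Barcode 83 had 992 UMIs and 20 member UMIs, with 6 *Csf1r*, 4 *C1qb*, 2 *Cx3cr1* and 3 *Apoe*. It also had 14.8% mitochondrial UMIs, and 6 of the 17 carriers reached the limit of 10%. *Apoe* had more UMIs than each of the other 9 genes in 14 of the 17 carriers.

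**Figure D2:**
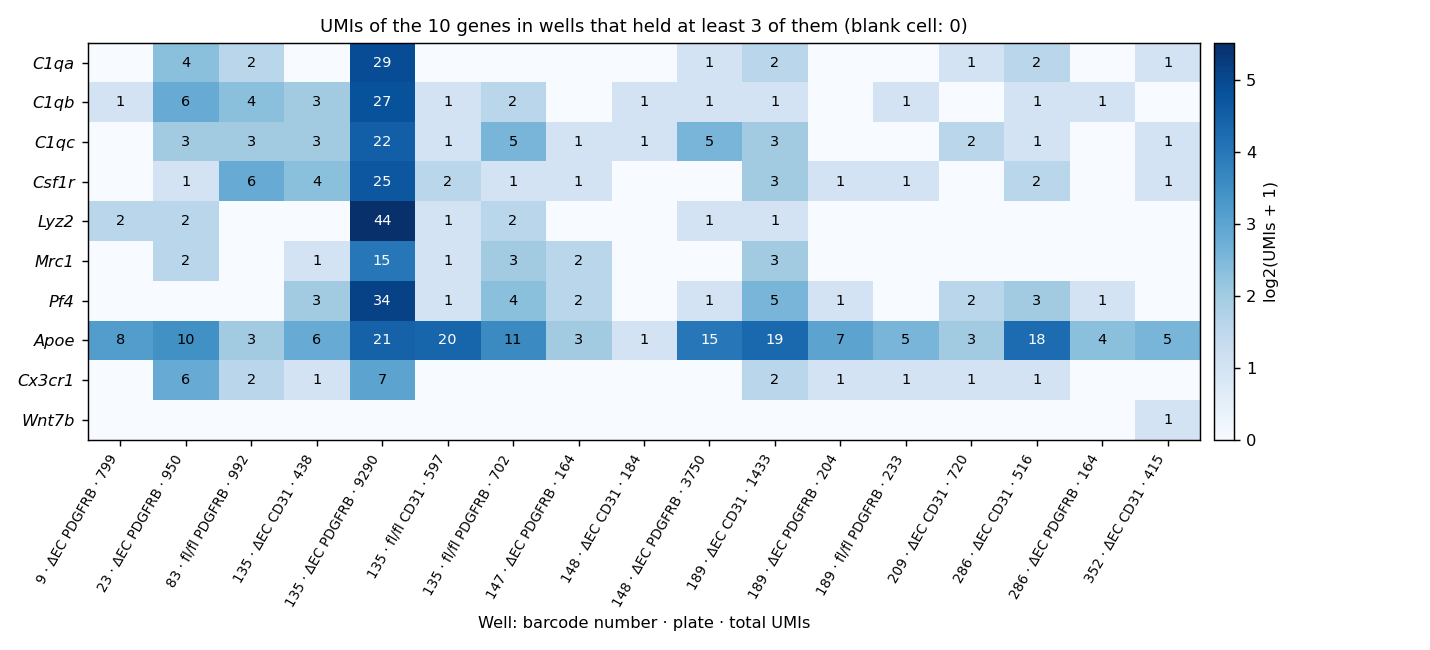
UMIs of each of the 10 macrophage genes (down the grid) in each of the 17 carrier wells (across the grid, labelled by barcode number, plate and total UMIs), with shading on a log2 scale and blank for 0. The deepest carrier, barcode 135 of the knockout PDGFRB plate, held 224 member UMIs and the other carriers held 3 to 39.

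*Cldn5* and *Pdgfrb* are the class markers that stand for endothelial cells and pericytes. Of the 17 carriers, 13 lacked both, 4 had *Pdgfrb* only and 0 had *Cldn5*. Depth bears on this count, since a shallow well may miss a marker it holds. Among wells of at least 1000 UMIs, 4 of 5 carriers lacked both markers (80%, 28.4 to 99.5) against 9 of 53 other wells (17.0%, 8.07 to 29.8). The intervals overlap slightly, although the carriers had the lower median total, 1433 against 3443 UMIs. Among wells under 1000 UMIs, 9 of 12 carriers lacked both (75%, 42.8 to 94.5) against 1421 of 1466 other wells (96.9%, 95.9 to 97.8), with median totals of 426.5 and 126. In shallow wells the lack of both markers was therefore the common state, and carriers lacked them less often than other shallow wells. Without wells at a barcode deep in another plate, 4 of 5 shallow carriers lacked both (80%, 28.4 to 99.5), an interval that includes the share of other shallow wells.

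All 4 carriers with *Pdgfrb* had other pericyte-list UMIs as well. With *Pdgfrb* included, this list had 91 UMIs in barcode 148 and 25 in barcode 9 of the knockout PDGFRB plate, 5 in barcode 352 of the knockout CD31 plate and 3 in barcode 135 of the control CD31 plate. Barcode 135 had 1 *Pdgfrb* UMI beside 27 member UMIs of 7 genes. Wells of 1000 to 8000 UMIs with under 10% mitochondrial UMIs and neither marker numbered 7, and 3 of these were carriers. The macrophage genes were thus carried by some, not all, of the well-filled wells that lack both markers.

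The 17 carriers lay at 10 barcodes, and 4 barcodes with carriers in several plates held 11 of them. Barcode 135 was a carrier in all 4 plates, 189 in 3 plates, and 148 and 286 in 2 plates each. At 9 of the 10 barcodes the wells of the other plates held member UMIs too. The exception was barcode 147, with 0 of 199 UMIs. At barcode 135 the 3 wells outside the knockout PDGFRB plate held 76 member UMIs of 1737, or 438 per 10000 (345 to 548), against 241 per 10000 in the deepest carrier. Their genes stood in other proportions, with 37 *Apoe* UMIs (48.7%) and 0 *C1qa*, where the deepest carrier had 21 *Apoe* UMIs (9.38%, 5.90 to 14.0) and 29 *C1qa*. Shallow wells at the 4 barcodes whose only deep well was a carrier with neither marker held 318 member UMIs per 10000 (260 to 385), against 14.5 at the 337 barcodes with no deep well. Without wells at a barcode deep in another plate, 10 carriers were left, 8 of them with neither marker. Counting each barcode once left 10 carriers, 7 of them with neither marker.

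Carriers also held macrophage genes that did not define them. Of a list of 27 other macrophage genes, 23 were detected in carriers, with 376 UMIs or 174 per 10000 (157 to 193). The other wells of at least 1000 UMIs held 3.08 per 10000 (2.39 to 3.90) and the other wells under 1000 UMIs 5.22 (4.31 to 6.27). The deepest carrier gave 238 of the 376 UMIs, and the other 16 carriers still held 113 per 10000 (94.6 to 133). At least 1 UMI of the list was found in 15 of the 17 carriers. *Fcer1g*, a signalling chain of myeloid receptors, was the most abundant gene with 42 UMIs. Some carriers held fewer UMIs of this list than of the pericyte list. In the knockout PDGFRB plate these were barcode 9, with 1 against 25, and barcode 148, with 10 against 91. In the knockout CD31 plate they were barcode 352, with 0 against 5, and barcode 148, with 0 against 2. The name given to the genes thus fits the other carriers, as far as these markers go, and some of those had few UMIs of the list.

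Lists for particular myeloid types were found in some carriers, alone or together. Of 10 genes of vessel-associated resident macrophages, 9 were detected with 63 UMIs, 37 of them *Stab1*, in 8 carriers. Of 7 microglia genes, 5 were detected with 23 UMIs, 9 of them *P2ry12*, in 7 carriers. The deepest carrier held both kinds, with 26 *Stab1*, 3 *Lyve1*, 4 *P2ry12* and 4 *Siglech* UMIs. Barcodes 189 of the knockout CD31 plate and 23 of the knockout PDGFRB plate held 12 and 8 UMIs of the resident list and 0 of the microglia list. Barcode 83 of the control PDGFRB plate held 0 of the resident list and 3 of the microglia list, 2 of them *P2ry12*. Both lists were found together in barcode 209 of the knockout CD31 plate (5 and 2 UMIs), barcode 148 of the knockout PDGFRB plate (2 and 1) and barcode 135 of the control PDGFRB plate (1 and 1). These counts are small, and wells were not assigned to a type.

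Lists of other blood and tissue cells were also counted in carriers. All 11 monocyte and neutrophil genes, all 8 lymphocyte genes and all 6 mast cell genes had 0 UMIs in carriers. Of the dendritic and antigen-presentation list 2 of 8 genes had 5 UMIs in all, and of the platelet list only *Ppbp* was found, with 3 UMIs. Astrocyte and retinal neuron genes had 0 UMIs in carriers, melanocyte genes 1 and lens genes 10. Erythroid genes had 2 UMIs, or 0.928 per 10000, while other wells of at least 1000 UMIs held 17.0 per 10000 and other wells under 1000 UMIs 176. Fibroblast genes had 22 UMIs, or 10.2 per 10000 (6.40 to 15.5), against 14.0 (12.5 to 15.7) and 20.7 (18.8 to 22.7) in the same sets of other wells, so that carriers were below the shallow wells only. The endothelial list had 10 UMIs in carriers, or 4.64 per 10000 (2.23 to 8.53). That was below other wells of at least 1000 UMIs, at 27.5 (25.3 to 29.7), but overlapped other wells under 1000 UMIs, at 9.08 (7.87 to 10.4), and the other deep wells with neither marker, at 9.38 (6.13 to 13.7). The pericyte list had 151 UMIs in carriers, 70.1 per 10000, led by *Rgs5* with 77. In the 13 carriers with neither marker it had 27 UMIs, or 16.9 per 10000 (11.1 to 24.6), against 69.3 (59.8 to 79.8) in the other wells of at least 1000 UMIs with neither marker and 137 (132 to 142) in all other wells of at least 1000 UMIs.

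Across all genes with at least 20 UMIs in carriers and the other wells of at least 1000 UMIs together, with 0.5 UMI added to each sum, 96 of 2862 were over 4-fold higher per 10000 UMIs in carriers, or 3.35%. The median log2 ratio over all genes tested was -0.30. Of the 10 macrophage genes 9 were tested, and no count is read from them. They define the carriers, and most of them reached 20 UMIs only with their UMIs in carriers. *Wnt7b* had too few UMIs to be tested. Of the 27 wider macrophage genes 6 were tested, most of which reached 20 UMIs only with their UMIs in carriers, so no count is read from that list. The endothelial and pericyte lists had 0 of 10 and 0 of 15 tested genes over 4-fold higher, with medians of -2.26 and -1.30.

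The genes other than the 10 with the largest ratio included *Laptm5*, a lysosomal membrane protein of blood cells, with 32 UMIs in carriers and 0 in other wells of at least 1000 UMIs, at least 109-fold higher against a floor of 3 counts over that group. *Ly86* had 26 against 0 UMIs, at least 88.9-fold higher. *Ctss*, a lysosomal protease, had 39 against 1 UMI, a log2 ratio of 8.64 (6.08 to 13.98), and *Fcer1g* had 42 against 2, a log2 ratio of 7.75 (5.81 to 10.84). *Stab1*, *Gatm*, *Maf*, *Lgmn*, *H2-D1* and *Selenop* followed, with log2 ratios from 4.66 down to 3.86. The deepest carrier gave 17 of the 32 *Laptm5* UMIs and 26 of the 39 *Ctss* UMIs, so these ratios rest in large part on 1 well. The genes were ranked among those with at least 20 UMIs in carriers. All named here but *Selenop* had under 20 UMIs in the other wells of at least 1000 UMIs, so they were tested only through carriers. This favours high ratios, so the ratios are a description only.

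Genes whose pattern over the 58 wells of at least 1000 UMIs was most like the mean of the 10 genes were largely the same names. *Laptm5* had the highest Pearson correlation of log-normalized values, 0.945, followed by *Fcer1g* at 0.831, *Maf* at 0.778, *Gatm* at 0.761 and *Ctss* at 0.741, of 2788 genes ranked. *Ly86*, *Lgmn*, *Stab1*, *Bst2* and *Trf* completed the 10 highest, with 0.727 down to 0.637. Without the deepest carrier *Laptm5* had 0.930 and *Ctss* 0.607. The ranking needed at least 20 UMIs in these wells, and some genes reached that only through carriers. *Ly86* had 20 UMIs there, 19 of them in the deepest carrier, and *Ctss* 31, of which 26. The correlations and the ratios rest in part on the same carriers, so the shared names are not separate support. The wells share plates and differ in depth, and the correlations are descriptions only.

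The pathways around the 10 genes were present unevenly in carriers. Of 14 complement genes 9 were detected in carriers with 185 UMIs, of which 143 were of the C1q chains that helped to define carriers. The other 11 genes had 42 UMIs in carriers, or 19.5 per 10000 (14.0 to 26.3), and 10.6 (5.65 to 18.1) in carriers without the deepest one. They were at 2.49 (1.87 to 3.24) in other wells of at least 1000 UMIs and 0.409 (0.187 to 0.776) in other wells under 1000 UMIs. The serine protease gene *C1s1* went the other way, with 0 UMIs in carriers and 52 in other wells of at least 1000 UMIs. Among the colony-stimulating factor and chemokine genes carriers held 87 UMIs, 48 of them of the receptor *Csf1r*, while its ligand *Il34* had 0 UMIs in carriers and 28, or 1.27 per 10000, in 17 of the other wells of at least 1000 UMIs. A level of *Il34* as low as in those other wells was not detectable at the carriers' depth of 21551 UMIs. Of 15 genes of Wnt7b signalling 8 were detected in carriers, with 34 UMIs or 15.8 per 10000 (10.9 to 22.0). That was below other wells of at least 1000 UMIs, at 29.5 (27.3 to 31.9), but overlapped other wells under 1000 UMIs, at 19.3 (17.5 to 21.2), and the other deep wells with neither marker, at 17.3 (12.8 to 23.0). The target gene *Apcdd1* had 7 UMIs in carriers, all in 1 well, and 184 in other wells of at least 1000 UMIs. Of 14 lysosome and lipid genes 12 were detected in carriers with 359 UMIs, of which *Apoe* and *Lyz2*, which helped to define carriers, had 212. The other 12 genes of this list had 147 UMIs in carriers, or 68.2 per 10000 (57.6 to 80.2), led by *Lamp1* with 31. They were at 18.3 (16.5 to 20.2) in other wells of at least 1000 UMIs, 24.9 (19.4 to 31.5) in those with neither marker and 11.9 (10.5 to 13.5) in other wells under 1000 UMIs, and at 51.4 (39.5 to 65.7) in carriers without the deepest one.

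Outside carriers the 10 genes were found at lower levels, as the choice of carriers by these genes implies. The order of the levels in the other wells did not follow depth. Carriers held 237 member UMIs per 10000 (217 to 258). Other wells under 1000 UMIs held 10.2 (8.88 to 11.6), and other wells of 1000 to 8000 and over 8000 held 2.95 (2.11 to 4.02) and 4.91 (3.54 to 6.64), whose intervals overlap. In the pooled plates without carriers, shallow wells thus held a higher share of these RNAs than deep wells. This order came from the knockout plates, with 16.5 (14.0 to 19.3) under 1000 UMIs, 2.78 (1.65 to 4.40) at 1000 to 8000 and 5.37 (3.51 to 7.87) over 8000. The control plates held 5.41 (4.20 to 6.86), 3.10 (1.94 to 4.70) and 4.32 (2.47 to 7.01), which overlap. With carriers kept in the order changed, with 17.9 (16.2 to 19.7) in wells under 1000 UMIs, 10.3 in wells of 1000 to 8000 and 28.1 in wells over 8000.

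In wells of 1000 to 8000 UMIs the level outside carriers was low with either class marker. Wells with *Cldn5* only held 2.48 member UMIs per 10000 (1.07 to 4.89, 12 wells), wells with *Pdgfrb* only 2.18 (1.27 to 3.49, 21 wells) and wells with both 3.40 (1.10 to 7.94, 3 wells). These 3 levels do not differ beyond counting error. Wells with neither marker held 9.36 (4.49 to 17.2, 7 wells), all of it *Apoe*. With carriers kept in, wells with exactly 1 marker held 4.30 (3.18 to 5.69), and without the knockout PDGFRB plate 1.44. Without barcode 148 of that plate, the only carrier among them, they held 2.27 (1.47 to 3.35).

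In wells over 8000 UMIs the 8 wells with *Pdgfrb* only held 1.75 member UMIs per 10000 (0.906 to 3.06). The 2 non-carrier wells with neither marker held 17.6 (11.9 to 25.1), nearly all *Apoe*. Barcode 380 of the knockout PDGFRB plate had 15 *Apoe* and 1 *Csf1r* UMI, and barcode 146 of the control PDGFRB plate had 14 *Apoe* UMIs and none of the other 9 genes. Over all non-carrier wells of at least 1000 UMIs with neither marker, *Apoe* had 39 UMIs in 6 of 9 wells, or 14.1 per 10000, against 0.931 (0.192 to 2.72) in wells of 1000 to 8000 UMIs with *Cldn5* only and 1.67 (0.888 to 2.85) in those with *Pdgfrb* only. Barcodes 380 and 146 make up most of the 39 UMIs, and barcode 146 has 5 *Apoe* UMIs in the control CD31 plate too. *Apoe* without the other 9 genes was also found in wells with a class marker, such as barcode 118 of the control CD31 plate, which had both markers and 5 *Apoe* UMIs.

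The proportions among the 10 genes differed between carriers and the rest. *Apoe* made up 9.38% of member UMIs in the deepest carrier, 48.3% (42.3 to 54.2) in the other 16 carriers, 65.2% (58.5 to 71.4) in other wells under 1000 UMIs and 85.4% (75.8 to 92.2) in other wells of at least 1000 UMIs. Of the 78 UMIs of the other 9 genes in non-carrier wells under 1000 UMIs, *C1qb* had 29 (37.2%, 26.5 to 48.9), *Pf4* 20, *C1qc* 13 and *C1qa* 2 (2.56%, 0.312 to 8.96). In carriers *C1qb* had 50 (14.2%) and *C1qa* 42 of the 351 UMIs of these 9 genes, and the deepest carrier gave 29 of the 42. In the other 16 carriers *C1qb* had 15.5% (10.1 to 22.4), below the shallow wells. *C1qa* had 8.78% (4.76 to 14.6) in these 16, which overlaps the shallow wells. By *Apoe* and *C1qb* the shallow wells therefore did not hold the 10 genes in the ratio found in carriers. Carriers were chosen by these genes, and the part of that choice in the proportions was not tested.

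Detection was also compared at equal depth. Carriers were chosen by these genes, and thinning does not remove that choice. The gap between carriers and other wells is thus set in large part by the choice. If each well were thinned to 100 UMIs, 91.2% of carriers would be expected to show a member UMI, 7.97% of other wells under 1000 UMIs, 2.87% of other wells of 1000 to 8000 and 4.65% of other wells over 8000. Before thinning, over all wells of each set, the shares were 100%, 11.4%, 44.2% and 80%. Without *Apoe* the thinned shares were 77.0%, 3.03%, 0.638% and 0.358%. The higher share of deep wells outside carriers before thinning was thus not seen in the expected shares at equal depth, which carry no interval. Of the 1466 shallow wells, 508 were left out of the thinned shares as shallower than 100 UMIs.

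Between genotypes the shallow wells differed more than counting error. Without carriers, wells under 1000 UMIs held 13.4 member UMIs per 10000 (9.88 to 17.9) in the knockout CD31 plate and 18.3 (15.0 to 22.1) in the knockout PDGFRB plate. The control CD31 plate held 5.28 (3.63 to 7.41) and the control PDGFRB plate 5.55 (3.86 to 7.71). Both knockout plates were above both control plates and the intervals did not overlap between genotypes. With barcodes deep in another plate left out as well, the levels were 15.8, 19.4, 4.84 and 4.57 in the same order. The log2 ratio of control over knockout was -1.14 (-1.44 to -0.84) with carriers, -1.61 (-2.04 to -1.19) without them and -1.95 (-2.46 to -1.46) without carriers and without those barcodes. With carriers, it was -1.64 (-2.12 to -1.17) in the CD31 plates and -0.77 (-1.16 to -0.38) in the PDGFRB plates.

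*Apoe* and *Pf4* differed between genotypes beyond counting error. Without carriers, *Apoe* in wells under 1000 UMIs was at 10.3 and 11.2 per 10000 in the knockout CD31 and PDGFRB plates and at 3.52 and 3.33 in the control CD31 and PDGFRB plates. *Pf4* had 17 UMIs in the knockout plates and 3 in the control plates, and its log2 ratio of control over knockout was -2.91 (-5.33 to -1.12). For *C1qb*, with 18 against 11 UMIs, this ratio was -1.12 (-2.35 to 0.04). With barcodes deep in another plate left out as well, *C1qb* had 17 against 5 UMIs and a ratio of -2.14 (-3.93 to -0.64), so its difference passed counting error only without those barcodes. *Csf1r* had 4 UMIs in each genotype, and a difference was not detectable at this depth. Without carriers, the 9 genes other than *Apoe* were at 3.15 (1.57 to 5.63) per 10000 in the knockout CD31 plate and 1.76 (0.878 to 3.15) in the control CD31 plate, which overlap. In the PDGFRB plates they were at 7.05 (5.08 to 9.53) in the knockout and 2.22 (1.21 to 3.72) in the control, which do not overlap. With carriers kept in, these 9 genes had a log2 ratio of -2.01 (-2.90 to -1.18) in the CD31 plates, -0.23 (-0.81 to 0.34) in the PDGFRB plates and -0.90 (-1.37 to -0.44) in both together. Which pair of plates, by name, showed a difference in these 9 genes thus depended on whether carriers were kept. The gap between the pairs was not tested.

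The wider macrophage list in the same shallow wells was higher in the PDGFRB plates of both genotypes, with 11 and 52 UMIs, or 3.15 and 8.73 per 10000, in the knockout CD31 and PDGFRB plates and 11 and 41 UMIs, or 1.76 and 6.50 per 10000, in the control CD31 and PDGFRB plates. Pooled over gates and without carriers it was at 6.66 (5.12 to 8.53) in the knockout and 4.14 (3.09 to 5.43) in the control, which overlap. Without barcodes deep in another plate as well it was at 6.86 (5.14 to 8.97) and 3.50 (2.44 to 4.86), which do not. With carriers kept in it was at 9.03 (7.24 to 11.1) and 8.35 (6.84 to 10.1). With carriers but without those barcodes it was at 8.49 (6.58 to 10.8) and 6.53 (5.05 to 8.31). Both of these pairs overlap, so the difference was seen only without carriers and those barcodes. The values that follow are without carriers. The resident macrophage list had 7 UMIs in the knockout plates and 1 in the control plates. Lists of other cell types moved as well, but not in 1 direction by genotype. The pericyte list was at 95.3 (85.3 to 106) and 126 (117 to 135) per 10000 in the knockout CD31 and PDGFRB plates and at 123 (114 to 132) and 98.9 (91.3 to 107) in the control CD31 and PDGFRB plates. By plate name it was thus lower in the knockout in the CD31 plates and higher in the PDGFRB plates. The names of the control plates do not follow their markers. Against the control plate of the other name, the pericyte intervals of both knockout plates overlapped. The erythroid list was at 196 (182 to 211), 147 (138 to 157), 172 (162 to 183) and 196 (186 to 208) per 10000 in the same order, with overlapping intervals in the CD31 plates and a lower level in the knockout in the PDGFRB plates. The endothelial list, at 8.57 and 9.47 per 10000 in knockout and control wells, and the fibroblast list, at 22.1 and 19.6, had overlapping intervals. Median totals were 80 and 140.5 UMIs in the knockout CD31 and PDGFRB plates and 139 and 152 in the control plates, and median mitochondrial shares were 9.52%, 10.9%, 9.79% and 11.4%. Genotype and cell suspension cannot be told apart here, and the source of the RNA in shallow wells was not tested.

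**Figure D3:**
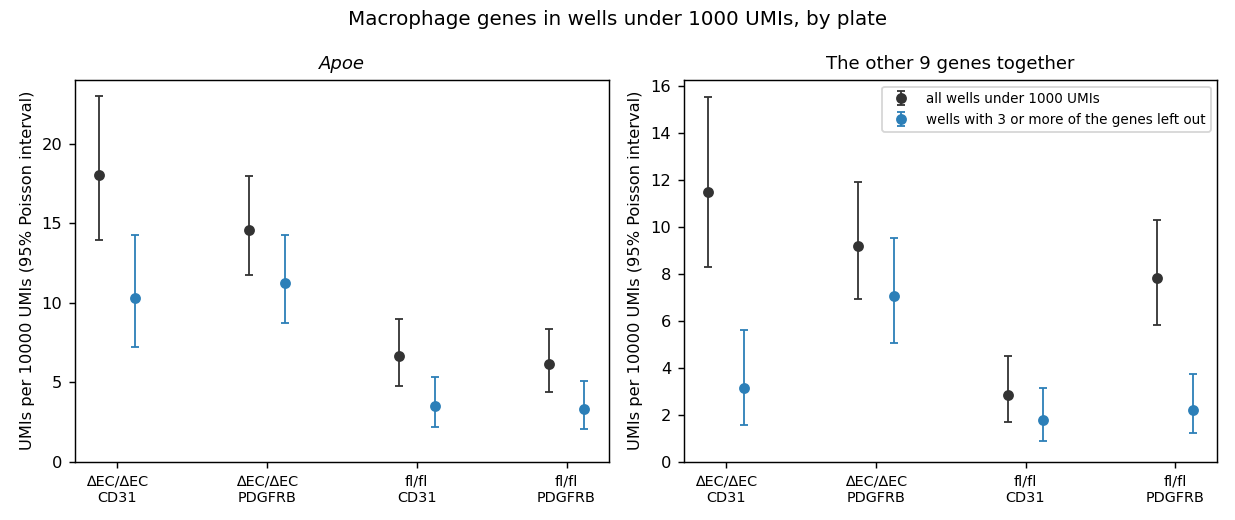
UMIs of *Apoe* (left) and of the other 9 macrophage genes (right) per 10000 UMIs in wells under 1000 scaled UMIs of each plate, with (black) and without (blue) carriers, and with exact 95% Poisson intervals for counting error. Without carriers, *Apoe* sits at 10.3 and 11.2 in the knockout plates and at 3.52 and 3.33 in the control plates.

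Promoters of the genes were also read, as a description. That the genes lie together in carriers is how carriers were chosen, and it is not taken as a result here. The RefSeq promoter table for GRCm38.p6 was used, which gives 250 bases before to 50 after each start. Of the 10 genes, 7 were read, with 9 promoters. Those of *C1qa*, *Csf1r* and *Wnt7b* were not read, so nothing is said about them here. The motif AGGAAGT, a core of the kind bound by ETS-family factors and chosen after matches had been seen, was searched on both strands. It was found in the promoters of *Mrc1*, *C1qb*, *C1qc*, *Pf4* and *Lyz2*, and not in the windows of *Apoe* and *Cx3cr1*. Over all genes, 3072 of 32851 promoters hold it, or 9.35%. A match describes letters in the window and is not evidence of binding. The matches are shown with 20 bases on each side, on the strand of the gene, with the match in capitals as its reverse complement, at chr2:14229183-14229229 (plus strand) for *Mrc1*, chr4:136886227-136886273 (minus) for *C1qb*, chr4:136893083-136893129 (minus) for *C1qc*, chr5:90772405-90772451 (plus) for *Pf4* and chr10:117282346-117282392 (minus) for *Lyz2*.
Mrc1: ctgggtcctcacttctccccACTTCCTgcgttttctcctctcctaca
C1qb: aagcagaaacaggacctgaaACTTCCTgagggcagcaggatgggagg
C1qc: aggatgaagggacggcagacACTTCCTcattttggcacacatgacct
Pf4: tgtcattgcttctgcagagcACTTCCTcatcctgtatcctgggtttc
Lyz2: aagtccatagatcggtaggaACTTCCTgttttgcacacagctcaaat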

How the data were processed

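The authors aligned SORT-seq reads to GRCm38 and counted UMIs with STARsolo (version 2.7.11b), and the deposited matrices hold estimated counts, of which 1.18% of the values above 0 were not whole. Values were rounded for sums and for the unscaled totals, by which levels per 10000 were divided. They were kept as deposited for scaled totals, plate medians, mitochondrial shares and log-normalization to 10000 UMIs. The 92 spike-ins were left out. Each plate's totals were multiplied by the highest plate median over its own, and class markers counted as present above 0 UMIs. The gate of each plate was read from the study's supplementary sort panel, and the sample labels give only genotype and replicate number. In the control plates the class markers do not follow this gate. All 21 gene lists, the 10 members among them, for macrophage, other cell type and pathway genes, were chosen with earlier results of these data known. Named genes are the 10 members, the 10 other genes with the largest carrier ratio, the 10 most correlated and genes of the lists. Single wells were named after their values were seen. Gene positions are from GENCODE M21. Intervals are exact Poisson for levels, Clopper-Pearson for shares and conditional binomial for ratios. Sums used pandas 2.3.3 and numpy 2.4.6 under Python 3.11.15, intervals scipy 1.17.1, and plots matplotlib 3.10.9. Barcode numbers count the matrices' barcodes in file order and are not plate positions.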

Additional observations from a re-analysis of the deposited data

How the results depend on the processing

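No paired analysis was possible because each genotype was 1 pooled cell suspension and no cells were sorted as pairs across plates. Wells that share a barcode were not treated as pairs. The alternatives on barcodes and on the top well were chosen after seeing the data. The 17 carriers numbered 40 with a minimum of 2 members, 9 where a member needed 2 UMIs, 10 with each barcode counted once, 10 without barcodes deep in another plate and 10 to 16 with 1 plate left out. The 13 carriers with neither marker numbered 30, 9, 7, 8 and 8 to 13 in the same order. The carriers' share of member UMIs, 62.5%, was 72.4% with 2 members, 50.5% with 2 UMIs, 49.9% with each barcode once, 48.3% without the top well and 55.7% to 65.0% with 1 plate left out. The level in wells under 1000 UMIs, 17.9 per 10000, was 7.40 without *Apoe*, 10.2 without carriers, 14.5 without barcodes deep elsewhere and 15.7 to 21.2 with 1 plate left out. The level in wells of 1000 to 8000 UMIs with 1 marker, 4.30, was 1.58 without *Apoe*, 2.27 without carriers and 1.44 to 5.24 with 1 plate left out. The log2 ratio of control over knockout, -1.14, was -1.61 without carriers, -1.64 in CD31 plates, -0.77 in PDGFRB plates, -1.89 without barcodes deep elsewhere and -1.45 to -0.89 with 1 plate left out. It stayed below 0 under every alternative run. Of all alternative values, 35 moved by less than their counting interval, or by less than 1.5 times for counts, and 30 moved by more. Some of the 35 are given above. The cause of the moves was not tested. Depth limits single-gene statements: 1478 of the 1536 wells held under 1000 UMIs.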
